A study of Homo sapiens with 9 samples.

Results

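The RNAs described here are the well expressed members of the LINC class, long non-coding RNAs that carry a numbered LINC symbol because no function or neighbouring gene had named them, in HNES1 cells on the way from naive to primed pluripotency. HNES1 is a human pluripotent stem cell line derived from an embryo and kept in the naive state. Members were chosen by symbol and by their measured level in DMSO. A row of the deposited count table was a member when its symbol was LINC followed by digits and its mean level over the 3 DMSO libraries was at least 5 CPM (CPM is the count per 1000000 counts of the library). That rule took 75 of 2220 rows with a LINC symbol, out of 56312 rows in all. The DMSO level was therefore the criterion of choice and is described below without a test, and comparisons with DMSO share its values.

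All 9 libraries came from 1 wild-type line at day 5 of the transition. In the group PROTAC the cells received 2.5 µM UNC6852, a degrader that ties the EED subunit of Polycomb repressive complex 2 (PRC2) to a ubiquitin ligase. In the group UNC they received UNC1999 at 1 µM, which blocks the PRC2 enzymes EZH2 and EZH1, and in the group DMSO the vehicle alone. Each group had 3 libraries. Agents were added a day before naive medium was removed and were present in every medium change thereafter. Naive stocks had been grown on irradiated mouse fibroblasts and were replated without them for the experiment. Nothing in the labels ties a replicate number to 1 experiment across the groups, although the series was described as 3 independent experiments.

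PRC2 places the histone mark H3K27me3, which keeps developmental genes silent in pluripotent cells. Long non-coding RNAs in these cells are usually spliced, lower in level than messenger RNAs and more restricted to a cell type. Several have been described as markers or regulators of pluripotency, among them LINC01108 and LINC00458, which RefSeq also lists as lncRNA-ES1 and lncRNA-ES3. LINC00458 is also known as HBL1, the heart brake lncRNA, reported to bind PRC2 in human pluripotent cells. For most members no role is known well enough to be stated.

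Promoter sequences are shown for 3 of the members whose calls held in all 15 alternative settings described below, LINC01108 and LINC01356 (lower with UNC1999) and LINC00662 (higher). Each runs from 250 bases before to 50 bases after the start given by RefSeq on GRCh38.p14, 5′ to 3′ on the gene's strand, with every CG in capitals. They lie at chr6:14285405-14285704, chr1:112850594-112850893 and chr19:27793891-27794190, all on the minus strand.
LINC01108: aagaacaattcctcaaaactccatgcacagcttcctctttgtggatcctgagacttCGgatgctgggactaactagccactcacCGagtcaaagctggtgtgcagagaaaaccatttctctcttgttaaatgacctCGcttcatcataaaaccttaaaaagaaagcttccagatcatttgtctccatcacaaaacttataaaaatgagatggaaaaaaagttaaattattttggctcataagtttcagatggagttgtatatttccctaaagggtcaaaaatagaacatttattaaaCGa
LINC01356: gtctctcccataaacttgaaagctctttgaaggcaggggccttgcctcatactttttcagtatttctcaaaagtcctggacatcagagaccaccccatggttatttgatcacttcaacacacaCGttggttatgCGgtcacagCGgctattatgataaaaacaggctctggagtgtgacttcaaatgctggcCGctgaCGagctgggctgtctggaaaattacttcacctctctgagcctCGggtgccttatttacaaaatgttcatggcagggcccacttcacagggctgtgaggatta
LINC00662: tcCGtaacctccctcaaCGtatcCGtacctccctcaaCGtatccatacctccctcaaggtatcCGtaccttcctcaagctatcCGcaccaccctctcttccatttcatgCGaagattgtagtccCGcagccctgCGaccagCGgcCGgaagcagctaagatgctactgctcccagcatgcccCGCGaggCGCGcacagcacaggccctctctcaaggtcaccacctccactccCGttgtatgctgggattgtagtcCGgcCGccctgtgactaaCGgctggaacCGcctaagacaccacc
The LINC01108 window held 4 CG pairs at 36.7% G and C, and the LINC01356 window held 6 at 47.7%. The LINC00662 window held 20 CG pairs at 59.3%.

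Over all members, 50 of 75 had a promoter in the RefSeq table. A window was counted as CpG-rich when its ratio of observed to expected CG was above 0.6 and its G and C content above 50%, which held for 18 of these 50 (36%), for 198 of 1424 windows of other LINC rows (13.9%) and for 12774 of all 27305 windows (46.8%). Among members called with UNC1999 in the paired fit described below, 3 of 8 lower ones with a promoter were CpG-rich (LINC01569, LINC00265 and LINC00205). Of 3 higher ones with a promoter, 1 was CpG-rich (LINC00662). The ratio was 0.81 for LINC00265, which fell, and 0.41 for LINC01500, which rose. The 3 windows shown above thus do not stand for the CpG content of either direction. The core TATA letters TATAAA, searched on both strands, stood in 5 of the 50 member windows including that of LINC01108, and in 12.0% of all windows. The octamer ATGCAAAT, the letters bound by POU factors, stood in 1 of the 50, that of LINC00641, and in 1.80% of all windows.

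The word intergenic held for few of these rows. On the table's own coordinates 13 of the 75 overlapped no other row, 34 overlapped a row on the opposite strand only, and 28 overlapped at least 1 row on the same strand. A protein-coding row was overlapped by 27, and 27 overlapped a row that stood higher in DMSO. The strand setting of the counting is not given in the sources used here, so the table was checked for it. Rows lying wholly within exons of a coding row of at least 100 CPM held a median of 0.00119 times the count expected from shared reads where the strands were opposite (66 pairs, 65 of them under 0.1), and 0.289 times where they were the same (11 pairs, 2 of them under 0.1). Opposite-strand overlap therefore carried little of the neighbour's signal in that check, whereas the 28 same-strand members may hold reads of the row they overlap. Stretches of at least 300 bases at 95% identity or more to another annotated gene were found in 19 members. They include LINC01356 (401 bases identical to the transcript AL390729.1), LINC02582, LINC00174 and LINC00265, and reads may be split where the match is a separate copy. The match of LINC00632 was CDR1, which overlaps it by 789 bases on the opposite strand and is not a separate copy. Matched genes whose identifiers are absent from the count table could not be placed. Others of the 19 matches, that of LINC01356 among them, may therefore also lie at the member's own position.

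**Figure D1:**
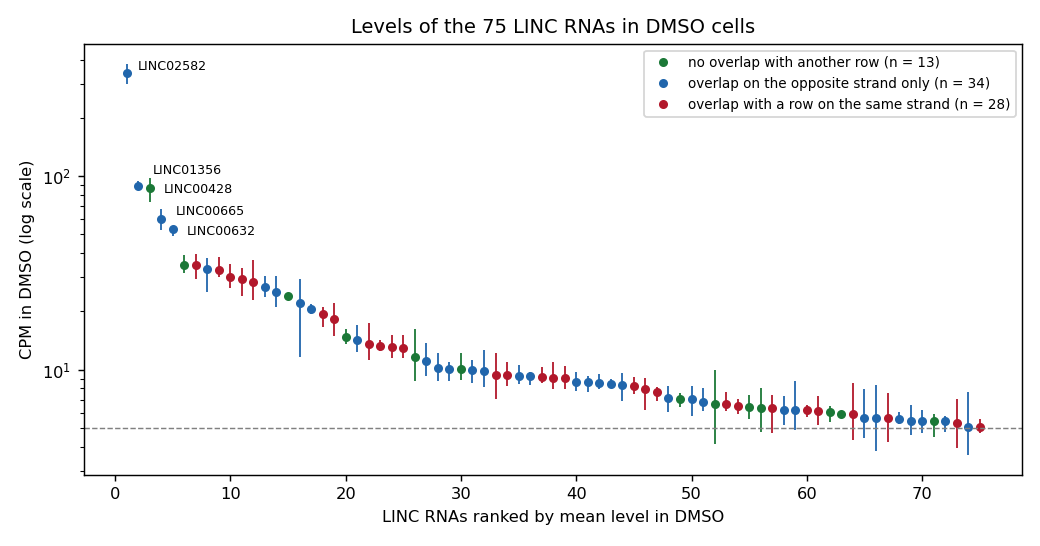
Mean CPM in DMSO of each of the 75 LINC RNAs, ranked, on a log axis, with vertical lines from the lowest to the highest of the 3 DMSO libraries, coloured by overlap with other rows of the table. The dashed line is the threshold of 5 CPM, and LINC02582 stands apart at 340 CPM while the median member was at 9.11 CPM.

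The members spread over 18 chromosomes, 42 on the plus strand and 33 on the minus strand, and spanned 3.124 to 537.617 kb (median 72.231 kb). Their levels were uneven, as the plot of ranked levels shows. The median DMSO level was 9.11 CPM, 30 members were at 10 CPM or more, and 10 at 30 CPM or more. LINC02582 was the highest at 320 ± 5.88 CPM in PROTAC, 318 ± 12.1 CPM in UNC and 340 ± 41.9 CPM in DMSO (SD, n = 3 each) and held 23.2% of the members' counts in DMSO. LINC01356 followed at 88.6 CPM in DMSO, LINC00428 at 87.3, LINC00665 at 60.3, LINC00632 at 53.1, LINC02864 at 34.8, LINC02693 at 34.6 and LINC01013 at 33.3. LINC02582 stood above the next member in every DMSO library. LINC01356 and LINC00428 did not differ beyond their spread (SD 4.82 and 12.4 CPM), and neither did LINC02864, LINC02693 and LINC01013.

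LINC00632 is the host of CDR1-AS, the circular RNA that binds miR-7, and LINC00665 encodes the micropeptide CIP2A-BP. Set per length, using exon lengths of GENCODE 29, the DMSO level of LINC00428 was 385 CPM per kb of exon, on an annotated exon length of only 227 bases. LINC02582 was at 149 CPM per kb, LINC02851 at 54.3 and LINC01356 at 48.6. The annotation used for counting was not given, so these lengths may differ from the exons counted. LINC02851 had an annotated exon length of 526 bases. It overlaps KDM4C (127 CPM in DMSO) by 6576 bases on the same strand, so its count may hold reads of KDM4C. The scale per kb of exon gave 8.37 for LINC00665, 5.08 for LINC02864 and 1.84 for LINC00632, so the long LINC00632 ranked lower per length than by CPM. At the threshold, LINC00222 (5.03 CPM) and LINC01820 (5.05 CPM) lay just inside, and LINC02315 (4.99 CPM) and LINC02484 (4.98 CPM) just outside.

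All 75 passed the expression filter of the test, with 107 to 32791 counts in any library, against total counts of 31651742 (PROTAC 3) to 101081643 (UNC 1). Together they took 0.133% ± 0.00642 of all counts in PROTAC, 0.134% ± 0.0140 in UNC and 0.146% ± 0.0179 in DMSO (SD, n = 3 each). These shares overlapped between the groups within their spread. Of 6 general pluripotency markers 5 were found under their symbols. They summed to 4030 to 4246 CPM in PROTAC, 3972 to 4291 CPM in UNC and 3785 to 4030 CPM in DMSO, so pluripotent cells, the labelled type, were borne out by these 5. In the paired fit described below, 2 of the 5 were higher in UNC than in DMSO and 1 was higher in PROTAC. In bulk samples such as these, fewer cells of a type and less RNA per cell cannot be told apart.

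UNC1999 against DMSO asks how the RNA levels change when PRC2 catalysis is blocked through the transition. LINC01356 was lower with the inhibitor and LINC01500 higher, and LINC01108 had the largest fold of all members. Expression was compared with edgeR's quasi-likelihood test over 24182 genes with Benjamini-Hochberg adjustment at 0.05, in 2 fits. The first fit used group alone, and the paired fit added the replicate number, since same-number libraries departed from their group means in parallel. By group alone 1 member rose and 1 fell, where 0.72% of all genes tested were called, 0.318% higher and 0.401% lower. With pairs in the model, 4 of the 75 rose and 13 fell (22.7% called), where 13.5% of all genes were called, 7.05% higher and 6.46% lower. Both fits use the DMSO values by which members were chosen, so these counts do not test LINC RNAs as a class. The members' median log2 fold change was -0.03 by group alone and, with pairs, -0.04, beside -0.01 over all genes in either fit. The 17 calls moved the same way in all 3 pairs, which a paired call favours. The paired count was 11 without UNC 2 (6.51% of all genes called) or UNC 3 (9.13%), and 9 when number 2 was dropped from every group (4.79%). By group alone 0 members were called without number 2 (0.00411% of all genes called) or number 3 (0%).

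LINC01356 lies on chromosome 1, 112820170 to 112850643, on the minus strand, and is also listed as LIMp27. It stood at 44.5, 45.9 and 50.1 CPM in UNC 1 to 3, against 94.0, 84.7 and 87.1 CPM in DMSO 1 to 3. Every UNC library was below every DMSO library by a wide margin. The fold was -0.89 on the log2 scale in either fit (group alone SE 0.0765, edgeR adjusted p = 0.000805; paired SE 0.0595, adjusted p = 4.7e-13).

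LINC01108 (chromosome 6, 14280127 to 14285454, minus strand) behaved differently between replicates. Its levels were 13.0, 4.57 and 12.3 CPM in UNC 1 to 3, against 25.2, 11.7 and 29.3 CPM in DMSO 1 to 3. Replicate 2 was the lowest in each group, and UNC 1 and UNC 3 lay above DMSO 2, so the groups overlapped although each pair differed in the same direction. By group alone the log2 fold change of -1.10 had an SE of 0.444 and was not called (edgeR adjusted p = 0.348). With pairs it fell, with a log2 fold change of -1.13 (SE 0.0827, edgeR adjusted p = 2.22e-12).

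LINC00458 on chromosome 13 (53950255 to 54270397, minus strand), the other embryonic stem cell lncRNA, was at 9.67, 5.85 and 6.56 CPM in UNC, against 13.7, 9.27 and 10.4 CPM in DMSO. It was highest in replicate 1 of each group and, like LINC01108, lowest in replicate 2. It fell in the paired fit (log2 fold change -0.58, SE 0.0913, edgeR adjusted p = 1.72e-05), and by group alone it was not called (-0.56, adjusted p = 0.242). LINC02972 (chromosome 12) was at 2.77, 3.18 and 4.54 CPM in UNC, against 5.25, 5.49 and 6.04 CPM in DMSO, without overlap. Its paired log2 fold change was -0.67, a call. LINC00265 (chromosome 7), which overlaps no other row and shares long stretches with 11 other genes, was at 11.9, 10.7 and 10.6 CPM in UNC, against 16.3, 13.6 and 14.5 CPM in DMSO. It fell by 0.39 in the paired fit, again with no overlap of the groups. LINC01013 was at 27.7, 21.9 and 27.98 CPM in UNC, against 37.9, 25.2 and 36.9 CPM in DMSO, and fell by 0.32 in the paired fit, with DMSO 2 inside the UNC range.

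**Figure D2:**
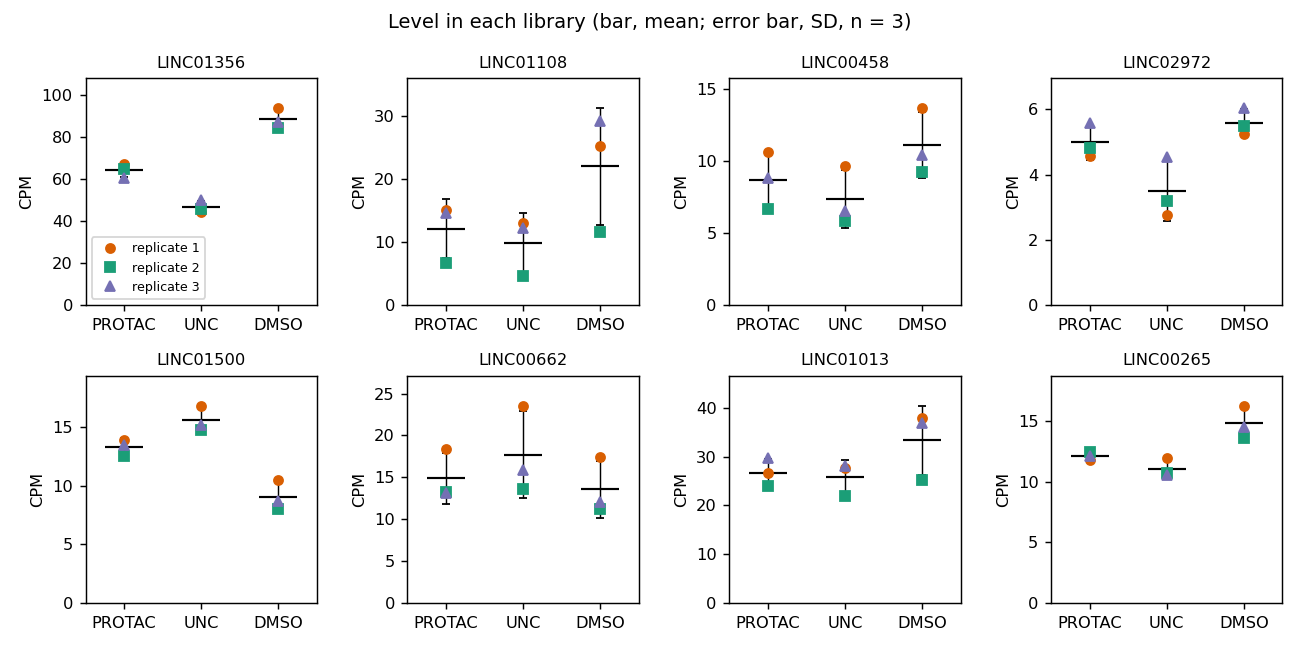
CPM in each library of 8 LINC RNAs in PROTAC, UNC and DMSO cells, with symbols for the replicate number, bars for the mean and error bars for the SD (n = 3 each). LINC01356 was at 44.5 to 50.1 CPM in UNC and 84.7 to 94.0 CPM in DMSO, and LINC01108 was lowest in replicate 2 of every group.

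Smaller falls in the paired fit were those of LINC00607 (-0.49), LINC01569 (-0.42), LINC02474 (-0.39), LINC00205 (-0.33), LINC02575 (-0.28), LINC00174 (-0.24) and LINC00664 (-0.22), as log2 fold changes. Each of these 7 lost its call in at least 3 of 15 alternative settings of the paired fit. LINC02575 was not called when any 1 of PROTAC 2, UNC 1, UNC 2, DMSO 1 or DMSO 2 was left out, and LINC02474 not without UNC 1 or DMSO 1. LINC00607 and LINC00174 were not called without UNC 2 or UNC 3, LINC00174 also not without DMSO 1, and LINC00205 not without UNC 3. LINC00664 was not called without UNC 2, UNC 3, DMSO 2 or DMSO 3, and LINC01569 not without UNC 3 or DMSO 3.

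Of the 4 members that rose, LINC01500 (chromosome 14, 58646631 to 59184247, plus strand) changed most. It was at 16.8, 14.8 and 15.1 CPM in UNC, against 10.5, 7.97 and 8.66 CPM in DMSO, with no overlap. The log2 fold change was 0.82 in both fits (group alone SE 0.105 and edgeR adjusted p = 0.0060; paired SE 0.0821). The row overlaps DACT1 by 1691 bases on the same strand, so part of its count may be reads of DACT1. DACT1, a Wnt pathway antagonist, averaged 153 CPM in UNC and 89.5 CPM in DMSO, and rose by nearly the same amount (0.81 in the paired fit, edgeR adjusted p = 7.22e-14). RefSeq places the start of LINC01500 181657 bases inside the row, and how much of the count came from either gene was not tested.

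LINC00662 (chromosome 19, 27681072 to 27794005) was at 23.5, 13.6 and 15.8 CPM in UNC, against 17.4, 11.2 and 12.0 CPM in DMSO. The groups overlapped, and the UNC library was the higher one in each pair. It rose in the paired fit (log2 fold change 0.41, SE 0.0764, edgeR adjusted p = 2.00e-04) and was not called by group alone (adjusted p = 0.439). LINC02864 (0.21) and LINC00632 (0.18) rose by less. LINC02864 was not called when UNC 1, UNC 2 or DMSO 2 was left out. LINC00632 was not called without UNC 2, UNC 3, DMSO 2 or DMSO 3, nor with scaling by library size alone.

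The highest member, LINC02582, did not pass the test. It was at 324, 304 and 325 CPM in UNC, against 382, 298 and 340 CPM in DMSO, with a paired log2 fold change of -0.06 (SE 0.0548, edgeR adjusted p = 0.532). LINC00428 (-0.08), LINC00665 (0.03), LINC02693 (-0.08) and LINC00467 (0.04) were not called either, nor was LINC00339 (-0.12). The DMSO libraries of LINC02582 spanned its UNC libraries.

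Markers of other cells also moved in this comparison. The trophoblast markers summed to 10.1 to 25.1 CPM in UNC and 18.9 to 45.4 CPM in DMSO, and 5 of 6 were lower in the paired fit. The mesoderm markers summed to 2.84 to 4.72 CPM in UNC and 6.78 to 10.1 CPM in DMSO, with 2 of 3 tested lower. The fibroblast markers summed to 156 to 201 CPM in UNC and 234 to 287 CPM in DMSO, with 2 of 2 tested lower. These sums were almost all COL1A1 and COL1A2, with LUM at 0 in every library and DCN at most at 0.0297 CPM. Of the amnion markers 0 of 3 tested were called and of the endoderm markers 0 of 2, while of 4 neural markers 1 was higher and 1 lower. The primed and formative markers summed to 413 to 504 CPM in UNC and 455 to 495 CPM in DMSO, with 1 of 7 higher and 4 lower. The naive markers summed to 1211 to 1340 CPM in UNC and 1309 to 1406 CPM in DMSO, with 2 of 7 higher. Their part in the changes of the LINC RNAs was not tested.

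UNC6852 against DMSO asks the same of degradation of EED. LINC01108, LINC01356 and LINC01500 were the members whose calls held in all 15 alternative settings of the paired fit. By group alone 0 of 75 members and 0% of all genes were called by edgeR, with 7 members and 1200 genes at an unadjusted p under 0.05, while DESeq2 called 2 members and 23 genes. In the paired fit 1 member rose and 6 fell (7 of 75, 9.33%), where 3.02% of all genes were called, 2.03% higher and 0.988% lower. The median log2 fold change of the members was -0.15 in both fits, beside -0.01 over all genes, and 63 of the 75 values were negative by group alone. That median depended on DMSO 1: it was -0.05 without that library and -0.21 without DMSO 2. Within the pairs of replicates 1, 2 and 3 it was -0.27, -0.07 and -0.11. Choosing the members by their mean over all 9 libraries in place of DMSO gave 70 members with a median of -0.14, but that mean still holds the DMSO libraries, and this comparison uses the DMSO values by which members were chosen. Other non-coding lists also had medians below that of all genes by group alone, at -0.13 for 26 named long non-coding RNAs, -0.10 for antisense rows, and -0.09 for hosts of small RNAs and for LINC rows below 5 CPM.

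LINC01108 was at 15.2, 6.70 and 14.7 CPM in PROTAC, against 25.2, 11.7 and 29.3 CPM in DMSO, lower in each pair with overlapping groups. Its fall was called with pairs (log2 fold change -0.82, SE 0.0815, edgeR adjusted p = 6.43e-08). LINC01356 was at 67.1, 65.1 and 60.7 CPM in PROTAC, against 94.0, 84.7 and 87.1 CPM in DMSO. It fell by 0.43 in the paired fit (SE 0.0589, edgeR adjusted p = 1.95e-05) and the groups did not overlap. By group alone its adjusted p was 0.328, and that of LINC01108 was 0.993. LINC01500 was at 13.9, 12.5 and 13.5 CPM in PROTAC, against 10.5, 7.97 and 8.66 CPM in DMSO, again without overlap. It rose by 0.59 with pairs (SE 0.0832), and DACT1, the row it overlaps, by 0.38, as log2 fold changes.

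LINC00607 (-0.53), LINC00458 (-0.34), LINC01013 (-0.28) and LINC00174 (-0.27) also fell in the paired fit. LINC00458 was at 10.6, 6.66 and 8.85 CPM in PROTAC, against 13.7, 9.27 and 10.4 CPM in DMSO, and LINC01013 was at 26.7, 23.9 and 29.6 CPM in PROTAC, against 37.9, 25.2 and 36.9 CPM in DMSO. Both were lower in each pair while the groups overlapped. LINC00607 was at 3.78, 3.33 and 6.13 CPM in PROTAC, against 6.78, 4.73 and 7.42 CPM in DMSO, and LINC00174 was at 23.1, 18.2 and 20.2 CPM in PROTAC, against 30.6, 21.2 and 24.0 CPM in DMSO, in both cases with overlapping groups and each pair lower. These 4 calls were less stable. All 4 were lost without PROTAC 1 alone, LINC00607 also without DMSO 2, LINC00458 also without PROTAC 2, DMSO 2 or DMSO 3, LINC01013 also without PROTAC 3, DMSO 1 or DMSO 3, and LINC00174 also without PROTAC 3 or any DMSO library. The count of calls was 3 without PROTAC 1 (1.51% of all genes called) and 4 without DMSO 3 (0.948%). LINC02582 stood at 327, 316 and 319 CPM in PROTAC, within the range of its DMSO libraries, and was not called (-0.06). Mesoderm markers summed to 3.79 to 8.15 CPM in PROTAC and 6.78 to 10.1 CPM in DMSO, and trophoblast markers to 14.7 to 42.1 CPM in PROTAC and 18.9 to 45.4 CPM in DMSO, with 1 of 6 trophoblast markers lower in the paired fit. Naive markers summed to 1312 to 1424 CPM in PROTAC and 1309 to 1406 CPM in DMSO, with 3 of 7 higher. Primed and formative markers summed to 435 to 523 CPM in PROTAC and 455 to 495 CPM in DMSO, with 1 of 7 lower, and fibroblast markers to 232 to 247 CPM in PROTAC and 234 to 287 CPM in DMSO, with 1 of 2 tested lower. Their part in these differences was not tested.

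**Figure D3:**
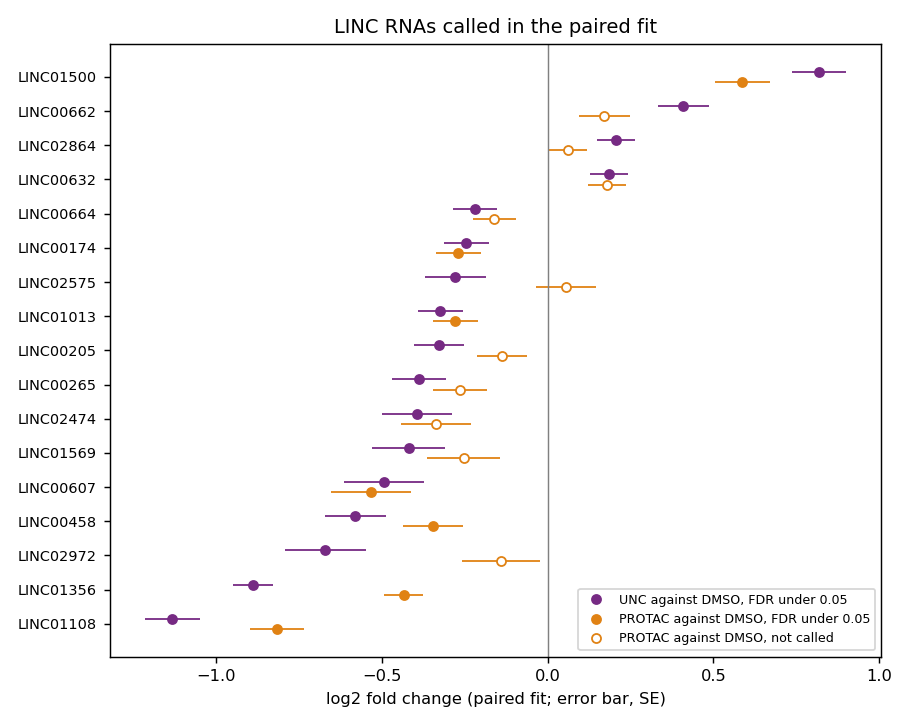
Log2 fold change against DMSO in the paired fit (error bars, SE) of the 17 LINC RNAs called in that fit, for UNC and for PROTAC, with filled symbols where the adjusted p was under 0.05. LINC01108 was at -1.13 in UNC and -0.82 in PROTAC and LINC01500 at 0.82 in UNC and 0.59 in PROTAC, and both comparisons use the same 3 DMSO libraries.

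The comparisons with DMSO share their control libraries, so PROTAC was also set against UNC directly. The doses differ (2.5 µM and 1 µM) and the agents act on different subunits. By group alone 0 members were called by edgeR, where 0.00827% of all genes were called. At an unadjusted p under 0.05 stood 5 members and 1136 genes, and DESeq2 called 1 member and 127 genes. In the paired fit 4 members were called, each higher in PROTAC, where 2.9% of all genes were called, 2.16% higher and 0.74% lower. LINC01356 was at 67.1, 65.1 and 60.7 CPM in PROTAC, against 44.5, 45.9 and 50.1 CPM in UNC, with no overlap. It was higher in PROTAC by 0.45 on the log2 scale (SE 0.0598, edgeR adjusted p = 2.95e-06), and it was the 1 member called in all 15 alternative settings of this comparison. LINC02972 (0.53), LINC02575 (0.33) and LINC01108 (0.32) were each lost in 6 of the 15. For LINC02972 and LINC02575 these were any setting without PROTAC 1, PROTAC 2, UNC 1 or UNC 2, and for LINC01108 those without PROTAC 1, PROTAC 2, UNC 2 or UNC 3 alone, or without number 2 or number 3. LINC01500 was not called (-0.23, adjusted p = 0.130), which does not show that the agents raised it equally.

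The replicate number was associated with more members than either agent. In the paired fit 47 of 75 members (62.7%) differed between replicate numbers, where 31.5% of all genes did. Of these 47, 36 were highest in number 1 and 32 lowest in number 2. Over all genes called for replicate number, 47.2% were highest in number 1 and 40.7% lowest in number 2. Other non-coding lists also had high shares called, 68.3% of the hosts of small RNAs, 61.5% of the named long non-coding RNAs and 53.1% of the antisense rows, while LINC rows below 5 CPM had 19.7%. The largest test value was that of LINC01108, whose mean over the groups was 17.8, 7.64 and 18.8 CPM in numbers 1, 2 and 3. LINC02575 averaged 15.4, 8.66 and 8.81 CPM, LINC01876 9.88, 4.28 and 5.64 CPM, and LINC00662 19.8, 12.7 and 13.6 CPM in the same order. LINC01820 averaged 6.70, 3.86 and 3.49 CPM and LINC02693 34.7, 27.4 and 38.5 CPM. LINC02575, LINC01876, LINC00662 and LINC01820 thus stood high in number 1, whereas LINC01108 and LINC02693 stood low in number 2.

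**Figure D4:**
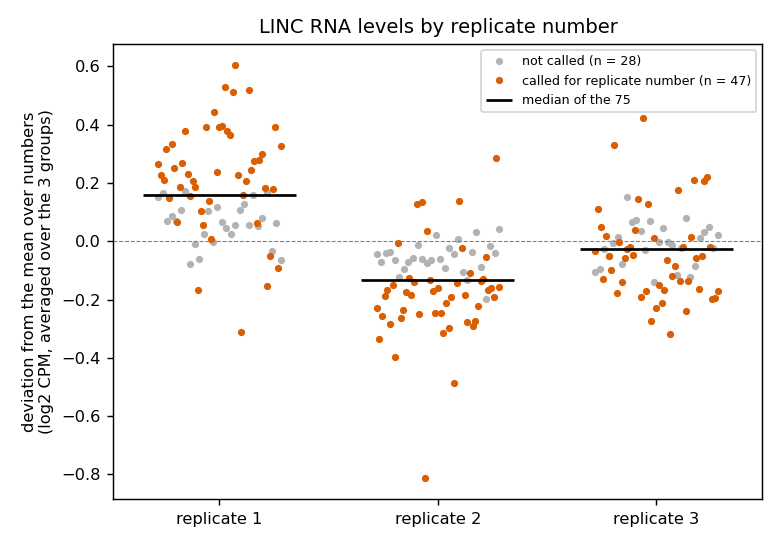
Deviation of each of the 75 LINC RNAs from its mean over the replicate numbers, in log2 CPM averaged over PROTAC, UNC and DMSO, with the 47 called members in orange and black lines at the median. The median deviation was 0.16 in number 1, -0.13 in number 2 and -0.03 in number 3, and 64 of the 75 members were above 0 in number 1.

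LINC01356 and LINC01500, called in UNC by either fit, were not among the 47 (edgeR adjusted p = 0.968 and 0.212). Over the members the 9 correlations of same-number deviations between groups were 0.492 to 0.813 (median 0.681), and over all genes 0.106 to 0.472 (median 0.264). These describe points that share a library and its depth. The trophoblast markers were lowest in number 1 of each group, at 14.7 CPM in PROTAC 1, 10.1 CPM in UNC 1 and 18.9 CPM in DMSO 1, and highest in number 2, at 42.1, 25.1 and 45.4 CPM in the same order of groups. Whether the state of the cells in each number set the LINC levels was not tested.

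Genes next to the called members were examined because LINC RNAs are often discussed with their neighbours. For the 17 members called in UNC in the paired fit, 28 flanking coding genes were tested and 6 were called, 3 in the direction of the member and 3 in the opposite one, where 13.5% of all genes were called. They were COL18A1, ZNF254 and TSPEAR in the direction of LINC00205, LINC00662 and LINC02575, and SOX3, RALA and FN1 opposite to LINC00632, LINC00265 and LINC00607. Flanking genes were taken at any distance. In that order these lay 51627, 3551104 and 2374 bases, and 204493, 25002 and 175490 bases, from the member. ZNF254 was thus far from LINC00662. For the 7 called in PROTAC, 11 were tested and the smallest adjusted p was 0.0732 (FN1), and for the 4 called between the agents, 7 were tested and the smallest was 0.383 (RIMKLB), both in the paired fit of edgeR. JARID2, a cofactor of PRC2 that lies 960615 bases from LINC01108, averaged 829 CPM in PROTAC, 831 CPM in UNC and 836 CPM in DMSO and was not called (paired log2 fold change 0.02 in UNC). SLC16A1, the lactate transporter gene beside LINC01356, had 0.13 in UNC and was not called, and SLC16A1-AS1, which overlaps LINC01356 on the opposite strand, had -0.03. CCN2, the connective tissue growth factor gene overlapped by LINC01013 on the opposite strand, had -0.07 and was not called. FN1, the fibronectin gene 175490 bases from LINC00607, rose in UNC by 0.22 in the paired fit while LINC00607 fell.

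Other non-coding RNAs gave calls in both directions in UNC. Of 462 LINC rows tested below 5 CPM in DMSO, 9 rose and 18 fell in the paired fit (5.84% called), where 13.5% of all genes were called, 7.05% higher and 6.46% lower. Of 96 antisense rows at 5 CPM or more, 3 rose and 12 fell (15.6%), and of 41 hosts of small RNAs 1 rose and 8 fell (22.0%). Among 26 named long non-coding RNAs, 2 rose and 7 fell (34.6%). The 2 that rose were NORAD (0.18), which sequesters PUMILIO proteins, and OIP5-AS1 (0.14). Those that fell included LINC-ROR (-0.76), described in reprogramming to pluripotency, H19 (-0.53) and MEG3 (-0.30), both imprinted, MALAT1 (-0.34), a nuclear RNA, ESRG (-0.19), expressed in human pluripotent cells, and MIR302CHG (-0.16), the host of the miR-302 cluster. In PROTAC, LINC-ROR fell by 0.47 and was the 1 of the 26 that was called, where 3.02% of all genes were called. By group alone 0 of the antisense, host and named RNAs were called in either comparison with DMSO by edgeR, where 0.72% (UNC) and 0% (PROTAC) of all genes were. At an unadjusted p under 0.05 stood 10, 8 and 6 of them in UNC and 8, 4 and 0 in PROTAC. Of all 24182 genes 3000 did so in UNC and 1200 in PROTAC. DESeq2 called 3, 2 and 3 of the listed RNAs in UNC and 1, 2 and 0 in PROTAC, in the same order of lists. Over all genes it called 802 in UNC (3.32%) and 23 in PROTAC (0.0951%).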

How the data were processed

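RNA of 9 HNES1 libraries was sequenced. Per the labels' protocols, libraries came from total RNA depleted of ribosomal RNA, while their molecule field gives polyA RNA, and which selection was used is unclear. The submitters' processing notes name Trim Galore 0.6.10, HISAT2 2.2.1 and GRCh38. For counting, the tool, annotation and strand setting were not given in the sources used here. In the deposited table the authors give whole-number counts per gene, not normalised. The 5 rows with no gene identifier stayed out of the tests.

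Tests used edgeR 4.0.16 (R 4.3.3) with TMM factors, filterByExpr on the groups, which left 24182 genes, robust quasi-likelihood fitting over the 9 libraries, two-sided tests, and Benjamini-Hochberg adjustment over all genes tested at 0.05. Group came from the sample titles. The fit by group alone was planned as the main one, and the replicate block as its alternative. Same-number libraries deviated together (9 correlations of 0.106 to 0.472, all above 0.1), and the 18 correlations between different numbers were -0.324 to 0.0748. Deviations from a group mean cancel within the group, so the 18 are partly fixed by the 9 and are no separate evidence of pairing. The margin was small for number 3, where PROTAC 3 stood at 0.106 with UNC 3 and at 0.0748 with UNC 2. Paired values therefore stand beside those by group alone. The pairing comes from the data and the titles' numbers. P-values set a difference between groups against the spread between these libraries that the fit leaves, which in the paired fit is the spread left after replicate number. Total counts ranged from 31651742 to 101081643, and the lowest member count was 107. CPM and shares were computed from the counts without TMM. Overlaps came from the table's coordinates, sequences and promoters from RefSeq (GRCh38.p14), exon lengths from GENCODE 29 (71 of 75 members matched), and near copies from blastn 2.17.0.

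Members and lists were chosen with earlier results of these data known. Members named are those called by group alone, the 8 largest paired rises and falls per comparison, the 8 highest and 2 on each side of the threshold. The 6 with the strongest effect of replicate number and members of a list of LINC RNAs with a described role are also named. Other paired calls are named to complete the counts. Alternatives were RLE and library-size scaling, DESeq2 1.42.0, no filter, the 6 libraries compared, other sets of members, and leaving out libraries or replicate numbers.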

Additional observations from a re-analysis of the deposited data

How the results depend on the processing

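The paired fit (replicate block) changed the counts of called members most: 17 in place of 2 for UNC, 7 in place of 0 for PROTAC and 4 in place of 0 for PROTAC against UNC. Over all genes 13.5%, 3.02% and 2.9% were called in place of 0.72%, 0% and 0.00827%. By group alone, the counts in that order were 6, 3 and 1 with no filter, where 2.11%, 0.183% and 0.62% of all genes were called. By DESeq2 they were 4, 2 and 1, where 3.32%, 0.0951% and 0.525% of all genes were called. For UNC by group alone, 0 were called without replicate 2 or replicate 3, where 0.00411% and 0% of all genes were called. Leaving out libraries gave 0 to 2, where 0% to 1.06% of all genes were called. Among members overlapping no other row 0 were called, and 1 among those at 10 CPM or more or overlapping no row on the same strand. The UNC median log2 fold change was -0.061 with library size only, -0.078 among members overlapping no other row, -0.070 among those at 10 CPM or more, and -0.14 to 0.035 leaving out libraries, so its sign was not stable. The ranges leaving out libraries were -0.21 to -0.052 for PROTAC and -0.15 to 0.033 for PROTAC against UNC. Within the paired fit, settings chosen after seeing the data gave 9 to 20 calls for UNC, 3 to 7 for PROTAC and 1 to 6 for PROTAC against UNC when libraries were left out. The paired UNC count was 11 without UNC 2 (6.51% of all genes called) or UNC 3 (9.13%), and 9 without replicate 2 (4.79%). It was 4 among members overlapping no other row and 11 among those overlapping no row on the same strand. The paired PROTAC count was 3 without PROTAC 1 (1.51% of all genes called) and 4 without DMSO 3 (0.948%), replicate 2 (0.572%) or replicate 3 (0.67%). It was 11 with no filter (2.4%) and 0 among members overlapping no other row. The paired count for PROTAC against UNC was 7 with no filter, 1 without PROTAC 1 or UNC 2, 2 without PROTAC 2, UNC 1, replicate 1 or replicate 2, and 1 among members overlapping no other row. For replicate number, 47 members became 5 among those overlapping no other row and 21 among those at 10 CPM or more, sets of 13 and 30 members, and 35 to 49 leaving out libraries. Log2 fold changes by group alone changed sign for LINC02575 in UNC without DMSO 1 (-0.52 to 0.019 leaving out libraries), LINC01108 in PROTAC against UNC without UNC 2 (-0.049 to 0.55) and LINC02575 in PROTAC against UNC without PROTAC 1 (-0.013 to 0.60), none of them called. Paired fold changes of the called members kept their sign in all 15 settings; 8 of 17 calls in UNC, 3 of 7 in PROTAC and 1 of 4 between the agents were kept in every one. The cause of these differences between settings was not tested.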
